A study of Homo sapiens with 6 samples.

Results

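The 10 genes described here carry copper and platinum drugs into, through and out of human cells. They include the copper importer SLC31A1 and its relative SLC31A2, the copper-exporting pumps ATP7A and ATP7B, and the copper chaperones ATOX1 and CCS. The others are the anion channel subunits LRRC8A and LRRC8D, and the carriers TMEM205 and SLC22A3. All 10 were chosen by name for these roles, and each matched 1 of the 58174 genes in the deposited table. RNA was measured in cells labelled Huh-7, the name of a cell line grown from a liver tumour, in 3 samples given miR-27a-3p mimics, small synthetic RNAs with the sequence of that microRNA, and in 3 samples given the agent that the labels call NC without spelling it out, used here as the control. Both groups were transfected with the same lipid reagent and taken after 48 h; the labels record no cisplatin. The series asks how this microRNA bears on the sensitivity of liver cancer cells to cisplatin.

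Copper enters cells mainly through SLC31A1, also called CTR1, as the reduced ion, and is passed at once to chaperone proteins because the free ion is toxic. ATOX1 hands it to the ATPase pumps ATP7A and ATP7B, which load copper enzymes in the Golgi and push any excess out of the cell; in liver, ATP7B sends it to bile. Cisplatin and related platinum drugs bind the metal sites of several of these proteins, which have been linked to platinum uptake, sequestration and resistance, and they also pass the volume-regulated anion channel built from LRRC8A and LRRC8D.

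A microRNA recognises messages through its seed, bases 2 to 8, so the seed of the transfected RNA and its matches in the 10 genes are shown first, from RefSeq (GRCh38.p14) for the microRNA and GENCODE 29 transcripts (GRCh38) for the genes. Capitals mark the seed in the first line and the matching letters in the others, which carry 8 flanking bases on each side.
miR-27a-3p: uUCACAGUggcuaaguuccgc
SLC31A1 match: cctctaaaACTGTGAttttcaag
ATP7B first match: gatgactgCTGTGAAatggagaa
ATP7B second match: tctgtcagCTGTGAAggcttcac
ATOX1 match: cattgtccCTGTGAAtgggccca
In each gene the longest 3' UTR was searched, on the sense strand only, for ACTGTGAA (8mer), for ACTGTGA without that last A (7mer-m8) and for CTGTGAA without the leading A (7mer-A1), so no site counts in more than 1 class. SLC31A1 held 1 7mer-m8 match at chr9:113261645-113261651 on the plus strand, at bases 1172 to 1178 of a 3' UTR of 4019 bases. ATP7B held 2 7mer-A1 matches, at chr13:51934422-51934428 and chr13:51933236-51933242 on the minus strand, and ATOX1 held 1 at chr5:151745251-151745257, also on the minus strand. The other 7 genes held none, and none of the 10 held an 8mer. The searched 3' UTR was only 39 bases in TMEM205 and 164 in CCS, so there was little room for a match. Among 11463 tested genes with an annotated 3' UTR, 28.9% held a match of some class, 6.55% an 8mer, 12.4% a 7mer-m8 and 16.3% a 7mer-A1. Their median searched 3' UTR was 1328 bases, shorter than those of SLC31A1 (4019), ATOX1 (4009) and ATP7B (2083). These shares are thus not for 3' UTRs of equal length. A match describes the letters only, and its absence says nothing of the microRNA beyond this window.

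Some facts of the libraries bear on what follows. Expression is given as FPKM (fragments scaled to gene length and to library size), with no read numbers. Values of FPKM times gene length pile up at 1 low value in each sample. If that value stands for 1 fragment, it implies 17000000 to 21100000 fragments in NC and 25100000 to 31000000 in mimic samples. Genes at 1 FPKM or more numbered 15109 to 15494 in NC and 13007 to 13250 in mimic samples. The groups thus differed in both features, whose part in the results was not tested. The liver markers did not match the label: of 15 hepatocyte and hepatoma genes, 14 were below 1 FPKM in every sample and 5 (APOA2, APOB, APOH, TTR and GPC3) were listed at 0 in all of them. ALB was above 0 in 1 sample only, AFP reached at most 0.0237 FPKM, and the whole list summed to 1.20 to 2.17 FPKM in the NC samples and 0.930 to 1.27 in the mimic samples. The cells are therefore called by their label and not by a tissue. Of 13 markers of other cell types, 9 were below 1 FPKM throughout; the list summed to 27.6 to 30.1 FPKM in NC and 19.6 to 30.3 in mimic samples. The markers CD68, which rose, and COL1A1, which fell, were the 2 tested: CD68 was at 8.17 ± 0.758 FPKM in NC and 16.2 ± 4.71 in mimic samples (adjusted p = 0.00938, or 0.0853 without sample 3 of both groups) and COL1A1 at 17.4 ± 0.408 and 7.99 ± 1.43 (mean ± SD, n = 3; adjusted p = 0.000606). PTPRC, a marker of all leukocytes, was at most 0.0184 FPKM; the part of other cells in the results was not tested. Mitochondrially encoded genes took 16.9% to 32.8% of summed FPKM in NC and 14.6% to 38.9% in mimic samples, with sample 3 the highest in both groups.

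The 10 genes spanned a wide range of levels per length. In NC samples ATOX1 (40.0 ± 7.07 FPKM) and TMEM205 (38.9 ± 3.76) were highest and overlapped, followed by LRRC8D (24.1 ± 1.16) and SLC31A1 (16.6 ± 1.86), each apart from its neighbours. CCS (9.02 ± 1.22) and LRRC8A (8.84 ± 2.90) overlapped, as did LRRC8A and SLC22A3 (5.55 ± 0.806). ATP7A (1.70 ± 0.153), ATP7B (1.46 ± 0.369) and SLC31A2 (0.934 ± 0.308) were lowest, each overlapping the next. Per length, the importer message SLC31A1 was thus more abundant than that of either export pump in every sample. In mimic samples SLC31A1 (26.5 ± 4.19) had passed LRRC8D (21.5 ± 1.52) in rank, although their ranges overlapped, and SLC22A3 (1.91 ± 0.358) lay at the level of ATP7A (1.78 ± 0.372).

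**Figure D1:**
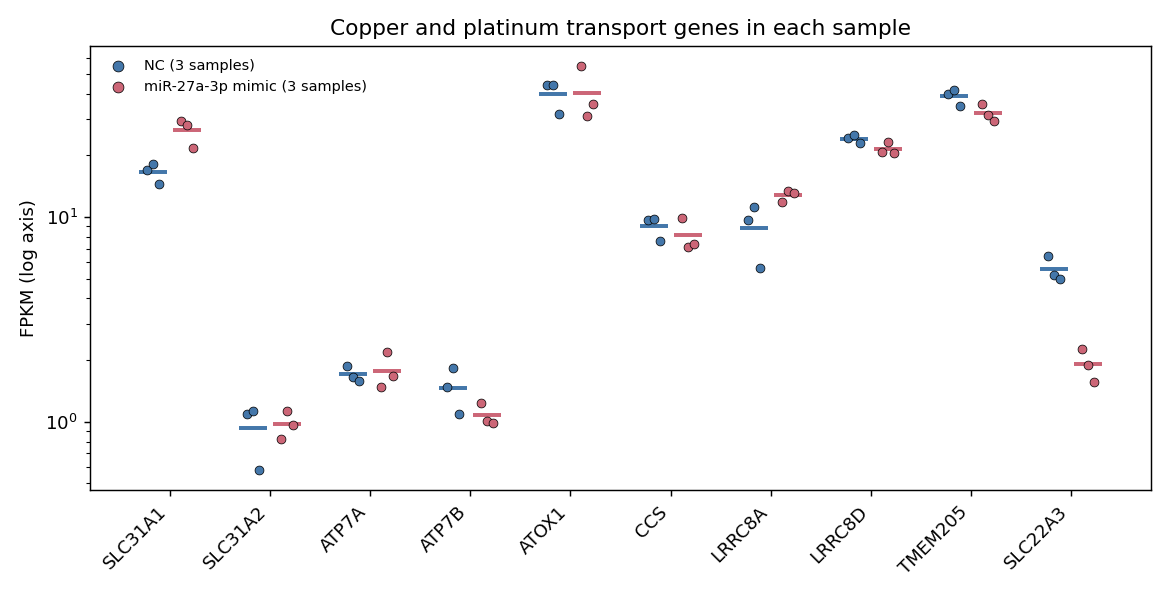
FPKM of the 10 genes in each sample on a log axis; points are samples 1 to 3 from left to right within a group, blue for NC and red for miR-27a-3p mimic, and bars are group means. The groups part for SLC31A1 and LRRC8A, with mimic samples higher, and for SLC22A3, with mimic samples lower; the other 7 genes overlap.

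SLC31A1 rose in mimic samples and SLC22A3 fell, and no other of the 10 passed the test. Of the 9 with a mean FPKM of 1 or more, limma called 2 at an adjusted p under 0.05, against 51.6% of all 14439 tested genes. The 1 called higher compares with 12.0% of all genes, and the 1 called lower with 39.6%. The groups did not overlap in 3 of the 10 genes, against 60.5% of all tested genes; mimic samples were higher in 2 of these, against 16.2%, and lower in 1, against 44.3%. On the deposited scale the share of calls among the 9 tested was thus below that of genes at large, through the lower calls. The share called higher was near that of all genes. With 9 genes this is not read as a trait of the set. The median log2 fold change of the 9 was -0.14 and that of all tested genes -0.29, so on the deposited scale the median gene was lower in mimic samples. With median-of-ratios scaling, which brings the median of all genes to 0.01, 2 of the 9 were called higher and 1 lower, against 26.9% and 27.4% of all genes. After quantile normalization 3 were called higher and 1 lower, against 24.9% and 22.8%, and the numbers were the same after GC and length correction, against 26.3% and 23.4%. Fold changes below are mimic against NC on the log2(FPKM + 0.5) scale, which understates those of low genes, and in bulk RNA fewer cells of a type and less RNA per cell cannot be told apart.

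SLC31A1 (ENSG00000136868, chromosome 9 from 113221562 to 113264492, plus strand, hg38), the high-affinity copper importer of the plasma membrane, was at 17.0, 18.2 and 14.5 FPKM in NC samples 1, 2 and 3, and in the mimic samples it was at 29.5, 28.1 and 21.7. All mimic samples lay above all NC samples, and sample 3 was the lowest of its group in both. The log2 fold change was 0.65 (SE 0.16, 95% interval 0.28 to 1.02, adjusted p = 0.00989), a ratio of means of 1.60. It ranked 1130 from the top among 14439 genes. The call held under every alternative run, with adjusted p from 0.000643 to 0.0395, and the rise was larger with median-of-ratios scaling (0.97), quantile normalization (0.78) and after GC and length correction (0.98). It is also the only 1 of the 10 whose searched 3' UTR held the 7mer-m8 match printed above.

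The span of SLC31A1 is entered from its far end by CDC26, a subunit gene of the anaphase-promoting complex on the opposite strand. The spans share 8658 bases but no exonic base in GENCODE 29. CDC26 was at 21.1 ± 2.72 FPKM in NC and 32.7 ± 2.14 in mimic samples (log2 fold change 0.62, SE 0.14, adjusted p = 0.0069). No source used here gives the strand setting of the counting, and whether reads of CDC26 enter the SLC31A1 value was not tested.

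SLC31A2 (ENSG00000136867, chromosome 9 from 113150942 to 113164137, plus strand), a relative of SLC31A1 found mainly on endosomes and lysosomes, was at 1.09, 1.13 and 0.579 FPKM in NC and 0.821, 1.13 and 0.959 in mimic samples. Its mean lay just under the minimum of 1 FPKM, so it was not tested; the groups overlapped and the difference of mean log2 values was 0.05. With no filter on low values limma gave an adjusted p of 0.855. FKBP15, on the other strand, covers 63.1% of the exonic bases of SLC31A2, so without strand its level is uncertain. FKBP15 itself fell, from 9.10 ± 0.159 to 6.01 ± 0.552 FPKM (-0.56, SE 0.13, adjusted p = 0.00644), but was not called with median-of-ratios scaling (-0.26, adjusted p = 0.071).

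Neither copper pump passed the test. ATP7A (ENSG00000165240, chromosome X from 77910656 to 78050395), the pump of most tissues other than liver, was at 1.88, 1.65 and 1.59 FPKM in NC and 1.48, 2.19 and 1.66 in mimic samples. The mimic values lay on both sides of the NC values (log2 fold change 0.04, 95% interval -0.35 to 0.43, adjusted p = 0.869). On other scales the value moved: it was 0.29 (adjusted p = 0.157) with median-of-ratios scaling, but 0.75 with quantile normalization (adjusted p = 0.00552) and 0.65 after GC and length correction (adjusted p = 0.00587), where it was called higher; over all alternatives adjusted p ran from 0.00552 to 0.998. PGAM4, a single-exon gene inside ATP7A on the other strand, with no exonic base shared, rose from 0.962 ± 0.391 to 4.28 ± 1.38 FPKM (1.70, SE 0.27, adjusted p = 0.00117). PGAM4 is a retrocopy of the glycolytic gene PGAM1, so the assignment of its reads is uncertain.

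ATP7B (ENSG00000123191, chromosome 13 from 51930436 to 52012125, minus strand), the pump mutated in Wilson disease, was at 1.48, 1.82 and 1.08 FPKM in NC and 1.24, 1.01 and 0.989 in mimic samples. Only mimic sample 1 lay within the NC range, above NC sample 3. The log2 fold change was -0.30 (95% interval -0.73 to 0.13, adjusted p = 0.21), -0.07 with median-of-ratios scaling and, in the other direction, 0.47 with quantile normalization (adjusted p = 0.0682). No direction can be given for it, and its 7mer-A1 matches stand beside a difference that did not pass the test.

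Neither chaperone passed the test. ATOX1 (ENSG00000177556, chromosome 5 from 151742316 to 151772532, minus strand) was at 44.0, 44.2 and 31.8 FPKM in NC and 54.6, 31.0 and 35.4 in mimic samples, so mimic samples held both its highest and its lowest value. Its log2 fold change was -0.02 (95% interval -0.54 to 0.51, adjusted p = 0.964), and the sign turned with median-of-ratios scaling (0.31, adjusted p = 0.252). CCS (ENSG00000173992, chromosome 11 from 66592821 to 66606019, plus strand), which delivers copper to the superoxide dismutase SOD1, was at 9.69, 9.76 and 7.61 FPKM in NC and 9.90, 7.16 and 7.42 in mimic samples. Again the groups overlapped (-0.14, 95% interval -0.53 to 0.25, adjusted p = 0.51), and the value was 0.17 with median-of-ratios scaling. The width of both intervals means that equal levels are not shown.

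Genes that overlap ATOX1 shared few or no exonic bases with it. G3BP1, a stress granule gene on the other strand, shares 130 exonic bases, or 2.48% of those of ATOX1, and was at 22.5 ± 0.760 FPKM in NC and 31.3 ± 9.37 in mimic samples (0.42, adjusted p = 0.149). It was called higher with median-of-ratios scaling (0.74, adjusted p = 0.0394), after GC and length correction (1.06, adjusted p = 0.00547) and without mimic sample 1 (0.69, adjusted p = 0.00279), within a range of adjusted p from 0.00279 to 0.447 over all alternatives. RPLP1P6, a ribosomal protein pseudogene within it with no exonic base shared, fell from 3.49 ± 1.24 to 0.952 ± 0.0801 FPKM (-1.42, SE 0.22, adjusted p = 0.00108), and the unnamed lincRNA ENSG00000275765 was at 2.73 ± 0.245 and 2.06 ± 0.658.

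LRRC8A and LRRC8D stood differently. LRRC8A (ENSG00000136802, chromosome 9 from 128882112 to 128918039, plus strand), the subunit without which the volume-regulated anion channel does not form, was at 9.71, 11.2 and 5.62 FPKM in NC and 11.8, 13.4 and 13.0 in mimic samples. The groups did not overlap, by a narrow margin between NC sample 2 and mimic sample 1, and NC sample 3 was far below the other NC samples. The log2 fold change of 0.56 (SE 0.23, 95% interval 0.02 to 1.09) missed the threshold after adjustment (adjusted p = 0.0758). It passed with median-of-ratios scaling (0.87, adjusted p = 0.0123), with quantile normalization (0.84, adjusted p = 0.0201), after GC and length correction (0.62, adjusted p = 0.0446) and without NC sample 2 (0.74, adjusted p = 0.0322). Without NC sample 3 it was 0.28 (adjusted p = 0.177), and without sample 3 of both groups 0.26 (adjusted p = 0.226, the upper end of its range over all alternatives). The size of this difference therefore rests on NC sample 3. KYAT1, a kynurenine aminotransferase gene on the other strand, reaches 383 bases into the span of LRRC8A without an exonic base in common, and fell from 23.4 ± 1.95 to 16.1 ± 2.92 FPKM (-0.54, SE 0.16, adjusted p = 0.0203). It was not called with median-of-ratios scaling (-0.23, adjusted p = 0.165), and without NC sample 1 its adjusted p was 0.0781, without mimic sample 2 it was 0.0647 and without mimic sample 3 it was 0.0573.

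LRRC8D (ENSG00000171492, chromosome 1 from 89821014 to 89936611, plus strand), the subunit that lets the channel pass uncharged drugs such as cisplatin, was at 24.2, 25.2 and 22.9 FPKM in NC and 20.7, 23.3 and 20.6 in mimic samples. The groups overlapped only through mimic sample 2 and NC sample 3 (log2 fold change -0.16, 95% interval -0.44 to 0.12, adjusted p = 0.302). With median-of-ratios scaling it was 0.16 and after GC and length correction 0.20, neither of them called. Among the subunits outside the 10, LRRC8C fell from 1.59 ± 0.156 to 0.726 ± 0.0516 FPKM (-0.77, SE 0.15, adjusted p = 0.00367) and LRRC8B from 1.82 ± 0.0238 to 1.05 ± 0.244 (-0.60, SE 0.17, adjusted p = 0.0186). Both directions turned with quantile normalization (0.05 and 0.16). After GC and length correction neither was called (-0.13, adjusted p = 0.529, and -0.03, adjusted p = 0.882). LRRC8B was also lost with median-of-ratios scaling (adjusted p = 0.122), without NC sample 1 (0.052) or 2 (0.0515) and without mimic sample 1 (0.0541). LRRC8E was below the minimum.

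TMEM205 (ENSG00000105518, chromosome 19 from 11342776 to 11346518, minus strand), a membrane protein linked to cisplatin export, was at 40.0, 41.9 and 34.7 FPKM in NC and 35.8, 31.5 and 29.4 in mimic samples. Mimic sample 1 alone overlapped the NC range (log2 fold change -0.27, 95% interval -0.59 to 0.05, adjusted p = 0.143), and the value was 0.054 with median-of-ratios scaling. CCDC159, on the other strand, covers 41.4% of its exonic bases and was far lower, at 2.88 ± 0.426 and 1.71 ± 0.569 FPKM. CCDC159 was called lower on the deposited scale (-0.64, SE 0.22, adjusted p = 0.0366). That call was lost with median-of-ratios scaling, quantile normalization, GC and length correction or mitochondrial genes left out (adjusted p 0.0541 to 0.97). Leaving out NC sample 1 or 3 or mimic sample 1 or 2 also ended it (adjusted p 0.0569 to 0.107). RAB3D, a secretory vesicle GTPase gene on the same strand, shares 8.97% of the exonic bases of TMEM205 and was at 1.95 ± 0.148 and 2.70 ± 0.608 FPKM (0.37, adjusted p = 0.117). It was called higher with median-of-ratios scaling (0.63, adjusted p = 0.00945), quantile normalization (1.02, adjusted p = 0.00145) and GC and length correction (0.49, adjusted p = 0.021) and without mimic sample 3 (0.52, adjusted p = 0.0392), within a range from 0.00145 to 0.31.

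SLC22A3 (ENSG00000146477, chromosome 6 from 160348268 to 160452581, plus strand), the organic cation transporter OCT3, was at 6.47, 5.23 and 4.96 FPKM in NC and 2.27, 1.90 and 1.56 in mimic samples. Every mimic sample was below every NC sample by a wide gap. The log2 fold change was -1.33 (SE 0.17, 95% interval -1.72 to -0.94, adjusted p = 0.000433), with a ratio of means of 0.344, and it ranked 1492 from the lowest among 14439 genes. It was called in every alternative that kept the gene, from -1.50 with a pseudocount of 0.1 to -0.78 with quantile normalization (adjusted p 0.000256 to 0.0067); with a minimum mean of 5 FPKM it was not tested. No other gene in the deposited table overlaps its span, and its 3' UTR of 1525 bases held no match to the seed.

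**Figure D2:**
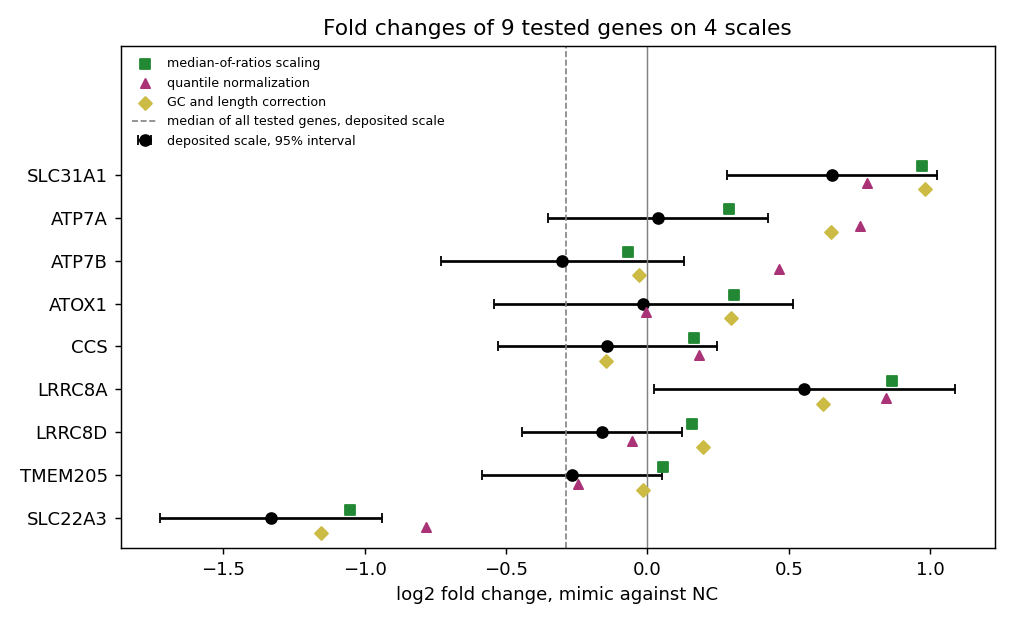
Log2 fold change of the 9 tested genes, mimic against NC; black points with 95% intervals are the deposited scale, green squares median-of-ratios scaling, purple triangles quantile normalization and yellow diamonds GC and length correction, and the dashed line is the median of all tested genes at -0.29. SLC31A1 stays to the right of 0 and SLC22A3 to the left on all 4 scales, while ATP7B, ATOX1, CCS, LRRC8D and TMEM205 cross 0 on at least 1 of them.

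Ratios between 2 genes within a sample do not depend on a factor applied to the whole sample, apart from the 0.5 added to each FPKM. Of 6 pairs compared, 4 had groups that did not overlap on the log2(FPKM + 0.5) scale: the 3 with SLC31A1, and LRRC8A to LRRC8D. For SLC31A1 to SLC31A2 this depended on the 0.5 added. With 3 samples against 3 the smallest p a two-sided exact permutation test can give is 0.1, so no pair could reach 0.05. The FPKM of SLC31A1 was 11.4, 9.99 and 13.4 times that of ATP7B in NC samples 1, 2 and 3 and 23.9, 27.9 and 21.9 times in mimic samples. The mean log2 ratio of these, with 0.5 added to each FPKM, was higher by 0.95 in mimic samples (exact permutation p = 0.1, adjusted over the 6 pairs 0.15). Against ATP7A, SLC31A1 was 9.04, 11.1 and 9.15 times as high in NC and 20.0, 12.8 and 13.0 times in mimic samples, a difference of 0.62 on the same scale (exact permutation p = 0.1). On the deposited scale the ratio of importer to pump was higher in every mimic sample than in any NC sample for both pumps. Ratios were not computed after quantile normalization or GC and length correction, which are not 1 factor per sample. There the log2 fold changes were 0.78 and 0.98 for SLC31A1, 0.75 and 0.65 for ATP7A, and 0.47 and -0.03 for ATP7B. SLC31A1 and ATP7A thus lay closer together than on the deposited scale.

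The ratio of LRRC8A to LRRC8D was 0.401, 0.445 and 0.245 in NC and 0.572, 0.575 and 0.634 in mimic samples, a difference of 0.72 in mean log2 ratio (exact permutation p = 0.1), and 0.43 without sample 3 of both groups. SLC31A1 to SLC31A2 differed by 0.60 (exact permutation p = 0.1), but with 0.1 added in place of 0.5 the exact permutation p was 0.2. Their plain FPKM ratios were 15.5, 16.1 and 25.1 in NC and 36.0, 25.0 and 22.6 in mimic samples, so NC sample 3 overlapped the mimic group. ATP7A to ATP7B differed by 0.34 (exact permutation p = 0.3) and CCS to ATOX1 by -0.13 (exact permutation p = 0.4), with overlapping groups in both.

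**Figure D3:**
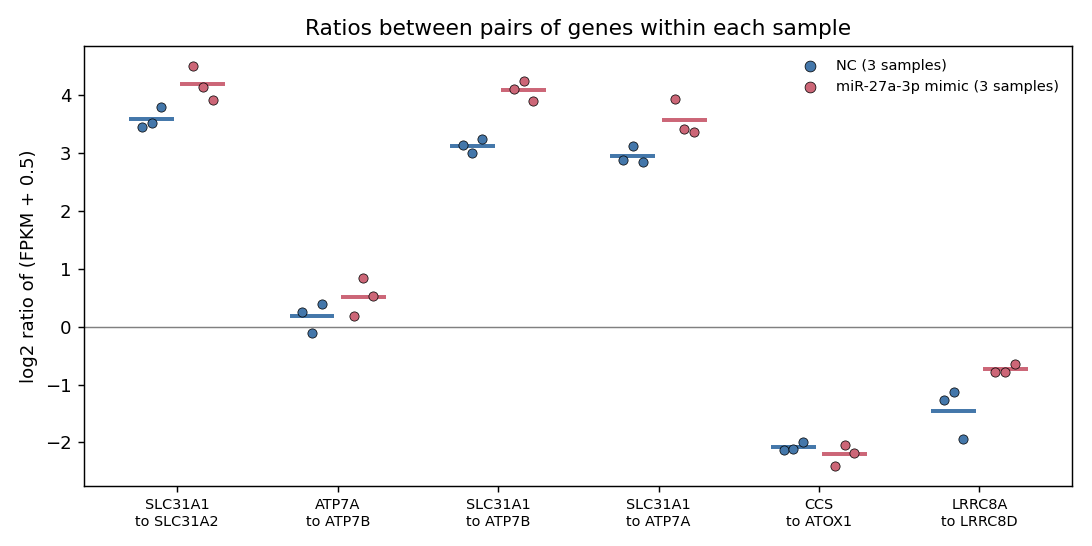
Log2 ratio of (FPKM + 0.5) between 6 pairs of genes within each sample; blue points are NC, red points mimic, and bars are group means. On this scale the groups part for the 3 pairs with SLC31A1 and for LRRC8A to LRRC8D, and overlap for ATP7A to ATP7B and CCS to ATOX1.

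Of 13 genes that store or reduce copper, with the metallothionein activator MTF1 counted among them, 6 were tested. Of these, 1 rose and 3 fell (median log2 fold change -0.18, against -0.29 for all genes), or 1 and 2 with median-of-ratios scaling. For this list and those below, the shares over all tested genes were 12.0% higher and 39.6% lower. With median-of-ratios scaling they were 26.9% and 27.4%. The metallothionein gene MT2A, whose product binds copper and zinc, fell from 360.1 ± 4.97 to 139.9 ± 10.6 FPKM (-1.36, SE 0.13, adjusted p = 0.00014), and STEAP4, a metalloreductase gene, from 61.8 ± 2.29 to 26.3 ± 4.27 (-1.23, SE 0.15, adjusted p = 0.000351). STEAP3, a related reductase gene, rose from 2.25 ± 0.150 to 3.36 ± 0.169 FPKM (0.49, SE 0.14, adjusted p = 0.0166), but not without NC sample 1 (adjusted p = 0.0633) or 2 (0.0586). MT1X, at 17.5 ± 2.65 and 12.5 ± 1.60 FPKM, passed on the deposited scale (-0.47, adjusted p = 0.0414) and not with median-of-ratios scaling (-0.15, adjusted p = 0.495); leaving out any 1 sample except NC sample 2 also ended its call (adjusted p 0.054 to 0.136). Members of the metallothionein family share much of their sequence, and how reads were divided among them is uncertain.

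On the deposited scale, genes that bring copper to cytochrome c oxidase in mitochondria were called in both directions, but higher only for SCO2, under 2 identifiers. Of 11 identifiers for 10 genes, 2 rose and 5 fell (median -0.42), or 2 and 4 with median-of-ratios scaling; the numbers after GC and length correction were 3 and 2. The assembly factor genes COA5 (38.4 ± 0.645 to 16.1 ± 2.58 FPKM, -1.24, SE 0.15, adjusted p = 0.000313), CMC1 (28.2 ± 2.15 to 14.0 ± 2.15, -0.999, SE 0.15) and COX11 (13.6 ± 1.03 to 8.66 ± 0.920, -0.63, SE 0.14) fell, COX11 only on the deposited scale and with mitochondrial genes left out among the 5 scales and CMC1 not after GC and length correction (adjusted p = 0.148). The 2 that rose are both listed as SCO2, a copper metallochaperone, at overlapping places on chromosome 22. ENSG00000130489 was at 13.6 ± 1.70 and 21.3 ± 3.74 FPKM (0.62, SE 0.17, adjusted p = 0.0148; 0.0509 without NC sample 3) and ENSG00000284194 at 1.35 ± 0.406 and 3.88 ± 1.00 (1.24, SE 0.23, adjusted p = 0.00253), and how reads were split between them is not known.

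Of 13 partner and trafficking genes of ATP7A and ATP7B, 1 rose and 1 fell (median 0.25), or 5 and 1 with median-of-ratios scaling. AP1B1, a subunit gene of the AP-1 adaptor that sorts cargo at the Golgi, rose from 12.6 ± 1.08 to 33.0 ± 0.742 FPKM (1.36, SE 0.12, adjusted p = 0.000101). GLRX, a glutaredoxin gene, fell from 31.1 ± 6.09 to 17.5 ± 3.31 (-0.81, SE 0.19, adjusted p = 0.00872), but was not called after GC and length correction (-0.46, adjusted p = 0.0719). Of 9 tested genes on the copper enzyme list, which also held CUTA and CUTC, none rose and 2 fell (median 0.09), or 5 and 1 with median-of-ratios scaling. The amine oxidase genes AOC2 (9.35 ± 0.629 to 4.27 ± 0.709 FPKM, -1.06, SE 0.15) and AOC3 (2.96 ± 0.387 to 1.68 ± 0.407, -0.68, SE 0.18) were the 2 that fell. AOC3 was not called with median-of-ratios scaling (-0.41, adjusted p = 0.129). SOD1, the enzyme that CCS serves, was at 104.9 ± 10.5 and 129.6 ± 14.4 FPKM (0.30, adjusted p = 0.12); it was called higher with median-of-ratios scaling (0.63, adjusted p = 0.00287), after GC and length correction (0.54, adjusted p = 0.00349) and with mitochondrial genes left out (0.32, adjusted p = 0.0292), within a range from 0.00287 to 0.293.

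Of 6 other carriers of platinum drugs 3 were tested and 2 fell (median -0.46), while with median-of-ratios scaling 1 rose and 0 fell. The 2 were the conjugate exporter genes ABCC2 (31.9 ± 2.89 to 23.1 ± 1.95 FPKM, -0.46, SE 0.13, adjusted p = 0.0203) and ABCC4 (37.9 ± 4.95 to 26.7 ± 3.13, -0.50, SE 0.15, adjusted p = 0.0252). With median-of-ratios scaling neither passed (-0.14 and -0.18). Nor did they without NC sample 1 (adjusted p = 0.0902 and 0.0848), NC sample 2 (0.0666 and 0.0953) or mimic sample 3 (0.0538 and 0.0701). The cation carrier SLC47A1 was at 2.87 ± 0.802 and 4.28 ± 1.80 FPKM (0.47, adjusted p = 0.204); it was called higher with median-of-ratios scaling (0.75, adjusted p = 0.0475) and quantile normalization (1.02, adjusted p = 0.0142), and its adjusted p over all alternatives ran from 0.0142 to 0.544.

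Of 11 genes of protein lipoylation and copper-dependent cell death, 2 rose and 2 fell (median -0.02), or 3 and 0 with median-of-ratios scaling. GCSH, a lipoyl carrier gene (7.50 ± 2.30 to 12.1 ± 2.37 FPKM, 0.68, SE 0.22, adjusted p = 0.033), and DLAT, a pyruvate dehydrogenase subunit gene (11.6 ± 3.74 to 17.6 ± 1.78, 0.61, SE 0.21, adjusted p = 0.0394), rose. Both calls were lost when NC sample 1, NC sample 3, mimic sample 1 or mimic sample 2 was left out, and that of DLAT also without mimic sample 3 (adjusted p 0.0714 to 0.103 for GCSH and 0.0577 to 0.125 for DLAT). The lipoyltransferase genes LIPT1 (5.98 ± 0.384 to 3.12 ± 0.854 FPKM, -0.86, SE 0.18, adjusted p = 0.00498) and LIPT2 (2.28 ± 0.263 to 1.36 ± 0.324, -0.59, SE 0.18, adjusted p = 0.0243) fell, but not with median-of-ratios scaling (-0.57, adjusted p = 0.0543, and -0.34, adjusted p = 0.0947). LIPT2 was also not called without NC sample 1 (0.0851) or mimic sample 3 (0.0685), and its sign turned with quantile normalization (0.10).

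**Figure D4:**
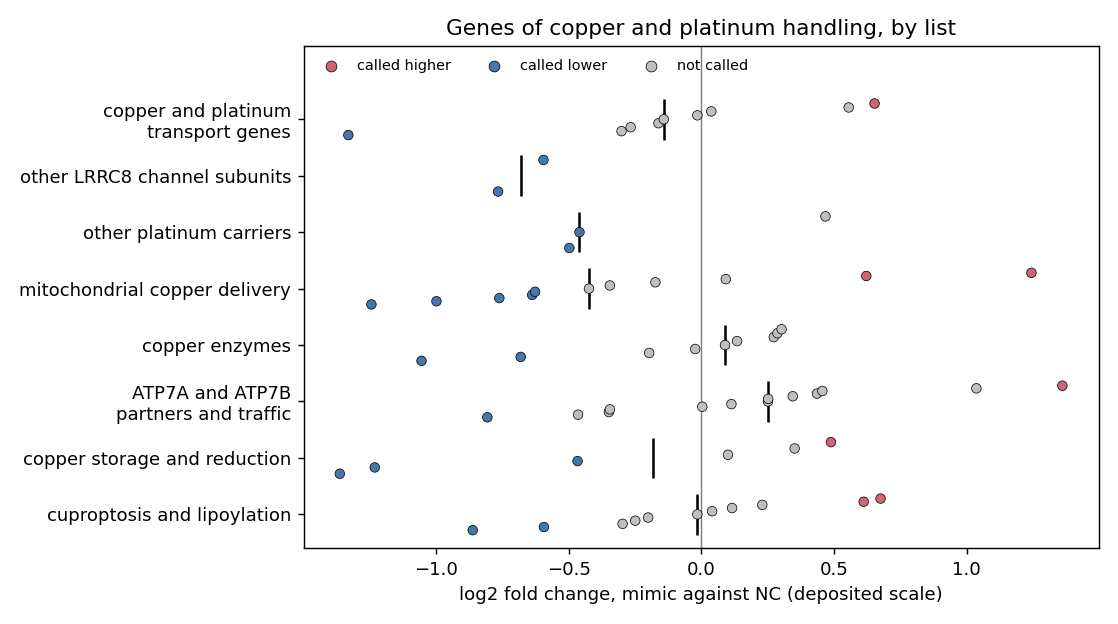
Log2 fold change, mimic against NC on the deposited scale, of each tested gene of the 10 and of 7 further lists; red points were called higher, blue lower and grey not called, and vertical bars are list medians. SLC31A1 at 0.65 and SLC22A3 at -1.33 are the called points of the top row; the storage and reduction row holds MT2A at -1.36 and STEAP4 at -1.23.

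The genes whose pattern over the 6 samples was most like that of SLC31A1 were sought among 9222 genes with a mean FPKM of 5 or more, by Euclidean distance of centred log2 values. Among the closest were PARP1, a DNA damage sensor gene, at a distance of 0.0653 (53.7 ± 6.45 FPKM in NC and 85.7 ± 12.7 in mimic samples), and GCLM, the modifier subunit of glutathione synthesis, at 0.0951 (8.17 ± 0.981 and 13.5 ± 2.35). For ATP7B they were CYSTM1 at 0.0895, the arginase gene ARG2 at 0.131 and ASB3 at 0.142 among 9223 genes. With 6 samples in 2 groups such likeness mainly shows a similar group difference with a similar spread.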

How the data were processed

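The values are FPKM that the authors computed and deposited, 1 per gene and sample, per the file headers. FastQC, HISAT2 and hg38 are named by the submitters' processing notes; no source used here gives versions, the program that made the FPKM, its strand setting or its annotation. Single-sample tables held the same values as the series table. Symbols were current ones matched by identifier (57392 of 58174). The 14439 genes whose mean FPKM was 1 or more were tested with limma-trend and robust moderation (limma 3.58.1, R 4.3.3) on log2(FPKM + 0.5), with Benjamini-Hochberg adjustment over all of them at 0.05. The test was checked on simulated data with few changed genes and no overall shift between groups. These data differ in both, so that check does not bear on the choice of scale. Nothing in the labels ties the 3 samples of a group to separate cultures, so p-values measure the spread between these samples only. Whole reads per gene were not recovered, so no count test was run.

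The 10 genes and the lists were chosen with earlier results of these data known, so a list's direction is not independent evidence. Named were the 10 genes, up to 3 called genes in each direction of each list by smallest p, overlapping genes that were tested and the 3 genes most like SLC31A1 and ATP7B, of which 1 is not reported here; SOD1, SLC47A1 and single marker genes were named after their values were seen. Alternatives covered scaling, pseudocount, filter, moderation, the replicate number as a block and each sample left out; GC and length correction (splines with 5 degrees of freedom each) and leaving out sample 3 of both groups were added after seeing the data.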

Additional observations from a re-analysis of the deposited data

How the results depend on the processing

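The calls of SLC31A1 and SLC22A3 held under every alternative that tested them. On other scales the sign of several uncalled genes turned. With median-of-ratios scaling the log2 fold change was 0.31 for ATOX1, 0.17 for CCS, 0.16 for LRRC8D and 0.054 for TMEM205, and LRRC8A was called (0.87). With quantile normalization it was 0.47 for ATP7B and 0.18 for CCS, and LRRC8A (0.84) and ATP7A (0.75) were called. After GC and length correction it was 0.30 for ATOX1 and 0.20 for LRRC8D, and LRRC8A (0.62) and ATP7A (0.65) were called. With mitochondrial genes left out ATOX1 was at 0.0070. Of the overlapping genes, ENSG00000275765 turned to 0.27 and CCDC159 to 0.012 with quantile normalization, and the former to 0.064 after GC and length correction.

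Genes called higher among the 10 numbered 2 with median-of-ratios scaling and 3 with quantile normalization or GC and length correction, and 0 were called lower with a minimum mean of 5 FPKM, which removes SLC22A3. Over all genes, 1735 were called higher and 5718 lower on the deposited scale, so 23.3% of calls were higher. The counts were 3889 and 3953 with median-of-ratios scaling (49.6% higher), 3592 and 3289 with quantile normalization (52.2%) and 3791 and 3363 after GC and length correction (53.0%). Lower calls were 8755 with no filter and 2916 with a minimum of 5 FPKM. The 7 further lists together had 6 identifiers higher, 2 of them SCO2, and 17 lower on the deposited scale, and 17 and 9 with median-of-ratios scaling. They had 11 and 11 with quantile normalization, 22 and 6 after GC and length correction, and 10 higher with mitochondrial genes left out. Shares over all tested genes were 12.0% higher and 39.6% lower on the deposited scale, and 26.9% and 27.4% with median-of-ratios scaling. They were 24.9% and 22.8% with quantile normalization and 26.3% and 23.4% after GC and length correction. The cause of these changes between scales was not tested.

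Leaving out samples gave ATP7A log2 fold changes from -0.090 to 0.13, ATOX1 from -0.25 to 0.15 and LRRC8A from 0.26 to 0.74 (0.28 without NC sample 3 alone), with 1 to 2 of the 10 called higher and 1 lower, 1256 to 1822 genes called higher and 4601 to 5732 lower over all genes, and 3 to 5 higher and 12 to 17 lower in the further lists.

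Whether the replicate numbers pair the samples could not be settled with 3 samples per group. Same-numbered deviations correlated at 0.177, -0.0467 and 0.223. Samples 1 and 3 correlated best with their own number, and sample 2 did not. With the number as a replicate block, SLC31A1 had an adjusted p of 0.00438 and SLC22A3 of 0.000901 by limma, and 2117 genes were called higher and 5994 lower. With that block added to the GC and length correction, 2 of the 10 were called higher, ATP7A (0.65) being called, ATOX1 was at 0.30 and LRRC8D at 0.20, ENSG00000275765 at 0.064, 3930 genes were higher and 3371 lower, and the further lists had 25 higher and 6 lower. Without counts, no limit of detection can be given for low genes such as SLC31A2, ATP7A and ATP7B.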
